A study of Mus musculus with 2 samples.

Results

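The interferon regulatory factors (IRFs) are DNA-binding proteins that carry signals from pathogen sensors and from interferon receptors to the genome of immune cells. The members were taken by gene symbol (Irf1, Irf2, Irf3, Irf4, Irf5, Irf7, Irf8 and Irf9), and 8 of the 31053 genes in the deposited matrices belonged to the set. Levels rest on UMIs (unique molecular identifiers), each of which stands for 1 captured RNA molecule. The series held 2 libraries of single cells from C57BL/6 hosts of 8 weeks, taken on day 4 after injection of Braf-mutant melanoma cells. Control mice were left untreated, whereas NK cell-depleted mice received 200 µg anti-NK1.1 (clone PK136) and 30 µg antibody against asialo GM1 on day 0 and on day 2. The tumors of both groups lacked Ptgs, the genes of the cyclooxygenases that start prostaglandin E2 synthesis, according to the design text, although the genotype label of both samples reads wild type. For each library, live CD45+ leukocytes from 10 pooled tumors were sorted, 16000 cells were loaded and a few parental melanoma cells were added. With 1 library per group there was no replicate and no test of a condition. All intervals therefore cover counting error only, at 95%, and not the spread between mice.

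After cell filtering, 5292 control and 4506 NK cell-depleted cells were kept, with 24810009 and 23245982 UMIs and medians of 4170 and 4893 UMIs per cell. The kept cells of both libraries shared 5 barcodes. Cells were clustered without the Irf genes and without their pathway genes, and clusters were named "X-like" from marker genes. The classes, given as control and then NK cell-depleted cells, were monocyte/macrophage-like (3480 and 3181), conventional dendritic cell (DC)-like (320 and 350), neutrophil-like (359 and 456), NK-like (570 and 6) and T-like (286 and 224). Migratory DC-like (61 and 51), B-like (56 and 37), plasmacytoid DC-like (32 and 27), eosinophil-like (13 and 69) and melanoma-like cells (60 and 69) were rarer. A cluster of 55 and 36 cells stayed unnamed. The NK-like class joined 2 clusters. The main one held 545 control and 1 depleted cells. The second held 25 control and 5 depleted cells, at a median of 8508 UMIs per cell. The NK-like cells of the depleted library numbered only 6, and 9 of 11 NK markers were at 0 UMIs in them. No comparison between groups was therefore made in that class.

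IRF3 and IRF7 sit in the cytoplasm until kinases downstream of nucleic acid sensors phosphorylate them, after which they switch on type I interferon genes. IRF9 is the DNA-binding subunit of the ISGF3 complex that answers type I interferon, and IRF1 is induced by interferon-gamma, for which NK cells are a known source, and drives antigen presentation genes, with IRF2 as its antagonist at shared sites. IRF8 and IRF4 bind DNA with partners such as PU.1 and BATF and set the identity of dendritic cells, macrophages and lymphocytes, and IRF5 carries Toll-like receptor signals to inflammatory cytokine genes in myeloid cells.

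In the GRCm38 annotation all members are protein-coding. Irf1 lies at chr11:53770014-53778374 (+), Irf2 at chr8:46739732-46847458 (+) and Irf3 at chr7:44997648-45002848 (+). Irf4 lies at chr13:30749226-30766976 (+), Irf5 at chr6:29526625-29541871 (+) and Irf7 at chr7:141262706-141266481 (-). Irf8 lies at chr8:120736358-120756694 (+) and Irf9 at chr14:55603571-55610030 (+). RefSeq promoters (GRCm38.p6) were matched by symbol for 8 of 8 members, in 11 entries. In the 250 bases before each start, 2 motifs were searched on both strands, namely TTCNNNGAA (GAS, the element through which interferon-gamma acts) and GAAANNGAAA (ISRE, the element that ISGF3 and the IRFs themselves bind). A GAS match was found for Irf1, Irf2 and Irf8, and an ISRE match for Irf2, whereas 7.02% of all 32851 promoters held a GAS match and 2.98% an ISRE match. The promoters of Irf1, Irf8 and Irf7 are shown because the results turn on these genes, with the motif matches in capitals and 5′ to 3′ on the strand of the gene. The Irf1 window, chr11:53769764-53770013 (+), holds 1 GAS match, 90 to 82 bases before the start. The Irf8 window, chr8:120736108-120736357 (+), holds 2 GAS matches, 171 to 163 and 153 to 145 bases before the start. The Irf7 window, chr7:141266425-141266674 (-), holds neither motif. A match is a run of letters and was not measured as a binding site here.
Irf1: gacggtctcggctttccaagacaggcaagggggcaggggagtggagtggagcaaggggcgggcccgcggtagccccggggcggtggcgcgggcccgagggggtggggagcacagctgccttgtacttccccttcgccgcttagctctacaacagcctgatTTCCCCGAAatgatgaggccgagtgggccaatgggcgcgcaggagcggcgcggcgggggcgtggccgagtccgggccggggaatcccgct
Irf8: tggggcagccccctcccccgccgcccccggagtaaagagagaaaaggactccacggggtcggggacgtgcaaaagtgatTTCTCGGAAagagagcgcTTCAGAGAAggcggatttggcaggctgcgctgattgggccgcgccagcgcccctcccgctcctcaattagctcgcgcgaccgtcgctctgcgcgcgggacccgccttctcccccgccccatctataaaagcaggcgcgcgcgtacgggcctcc
Irf7: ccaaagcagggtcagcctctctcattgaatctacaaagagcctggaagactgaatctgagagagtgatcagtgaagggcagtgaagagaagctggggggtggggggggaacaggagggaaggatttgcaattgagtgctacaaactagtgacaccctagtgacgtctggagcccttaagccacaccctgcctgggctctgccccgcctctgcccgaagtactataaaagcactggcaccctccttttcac

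Levels were taken as UMIs of a gene divided by all UMIs of a class and scaled as counts per 1e6 UMIs (CPM), summed over the cells of 1 library, so that every class has 1 value per library. The members fell into a broad and a restricted set. Irf2, Irf3 and Irf9 were spread over nearly all leukocyte classes, whereas Irf4, Irf5, Irf7 and Irf8 were high in some classes and low in others. Melanoma-like cells gave the background, because 3 to 4 UMIs of Irf1, 0 UMIs of Irf7 and 4 and 0 UMIs of Irf8 were counted in them. For Irf7, the 0 UMIs allow up to 18.3 CPM in the control and 9.85 CPM in the depleted library (3 counts of the class total). The 111 control and 235 depleted melanoma-like cells above the upper cell limits, which hold more UMIs in all, gave 0.50 and 1.88 CPM of Irf7 and 1.98 and 1.48 CPM of Irf8.

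Among the classes, Irf8 was highest in NK-like and plasmacytoid DC-like cells. It stood at 1941 CPM (1873 to 2012) in control NK-like cells. Plasmacytoid DC-like cells of the control and depleted libraries held 1755 and 1140 CPM. These classes did not differ beyond counting error in the control. A subcluster led by Xcr1, described below, held more Irf8 than either class. It was at 2542 CPM (2347 to 2749) in the control and 3059 CPM (2890 to 3235) in the depleted library. Its cells were counted within the conventional DC-like class, whereas the plasmacytoid DC-like subcluster was made a class of its own. Migratory DC-like cells followed at 1197 and 745 CPM, then conventional DC-like cells at 425 and 576 CPM, B-like cells at 278 and 635 CPM and monocyte/macrophage-like cells at 230 and 206 CPM. T-like cells held 33.2 and 15.7 CPM and neutrophil-like cells 30.5 and 9.93 CPM. The step from monocyte/macrophage-like to T-like cells exceeded counting error in both libraries. The step from B-like to monocyte/macrophage-like cells did not do so in every library.

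Irf4, which is needed for plasma cell and T helper cell programs, was highest in B-like cells (278 and 390 CPM) and in plasmacytoid DC-like cells (268 and 258 CPM). Both exceeded conventional DC-like cells (91.9 and 125 CPM), T-like cells (88.5 and 87.5 CPM) and monocyte/macrophage-like cells (30.1 and 48.9 CPM). Neutrophil-like cells held 2 and 1 UMIs of Irf4.

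Irf5 had its highest mean levels in conventional DC-like and monocyte/macrophage-like cells. Conventional DC-like cells held 187 and 199 CPM, monocyte/macrophage-like cells 139 and 188 CPM and migratory DC-like cells 131 and 131 CPM. B-like cells, at 62.8 and 159 CPM, and plasmacytoid DC-like cells, at 78.3 and 120 CPM, came next, from 7 to 19 UMIs per library. NK-like cells were at 21.9 CPM in the control, and T-like cells, with 8 and 2 UMIs, had a lower mean. This step did not exceed counting error in every library. Of the 34 control NK-like UMIs, 17 came from the 25 cells of the second NK-like cluster, at 83.8 CPM. The main NK-like cluster stood at 12.6 CPM in the control, level with control T-like cells at 12.6 CPM. No step in the order from conventional DC-like down to plasmacytoid DC-like cells exceeded counting error in both libraries, whereas neutrophil-like cells (84.3 and 36.4 CPM) stood above control NK-like cells.

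Irf7, the amplifier of type I interferon induction, had its highest mean level in monocyte/macrophage-like cells, with 156 and 168 CPM. Neutrophil-like cells were at 141 and 113 CPM, plasmacytoid DC-like cells at 106 and 94.5 CPM and conventional DC-like cells at 67.7 and 59.9 CPM. The steps from monocyte/macrophage-like to neutrophil-like and on to plasmacytoid DC-like cells did not exceed counting error in every library. Plasmacytoid DCs are known for constitutive Irf7, yet here this small class did not stand above monocyte/macrophage-like cells. Its values rest on 19 and 15 UMIs, and not all of its cells held Siglech UMIs, as described below.

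Irf1 was highest in migratory DC-like cells (215 and 120 CPM), the mature DCs on their way to lymph nodes. NK-like cells (125 CPM in the control), T-like cells (145 and 92.7 CPM) and neutrophil-like cells (152 and 79.4 CPM) came next and did not differ from one another beyond counting error in every library. Monocyte/macrophage-like cells were at 63.3 and 60.9 CPM and conventional DC-like cells at 45.5 and 46.5 CPM. Irf2 lay between 75.7 and 404 CPM in the 8 classes of leukocytes other than eosinophil-like cells. Irf9 lay between 57.8 and 113 CPM in them, and Irf3, at 9.37 to 62.8 CPM, was the lowest member in sum.

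**Figure D1:**
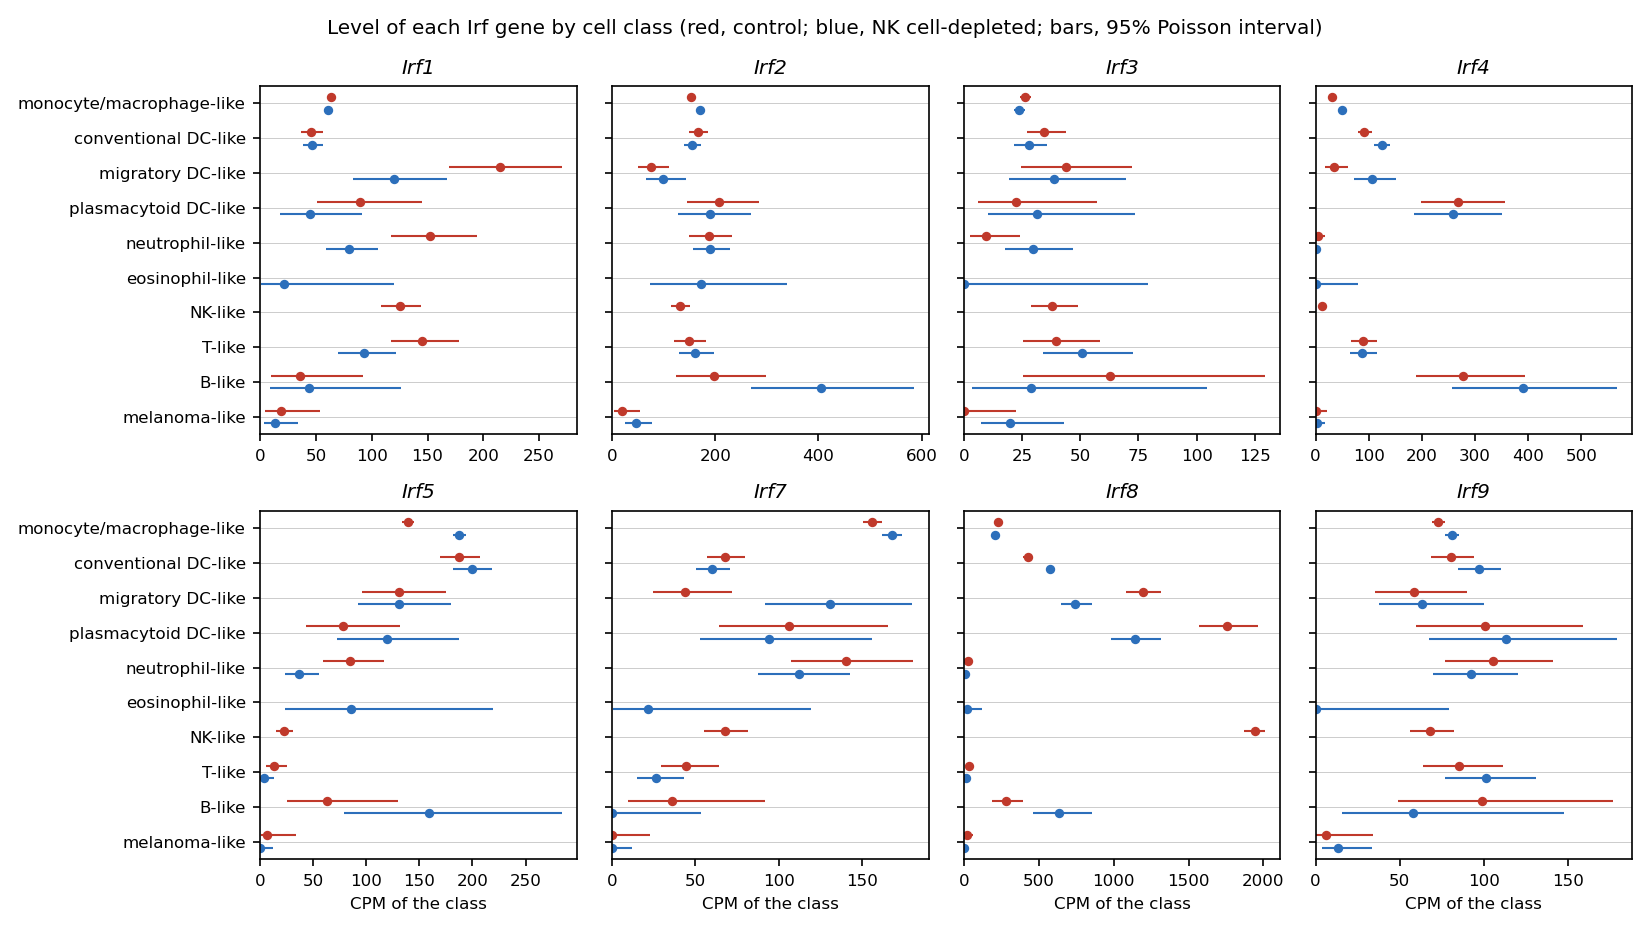
Level of each Irf member (CPM) in the cell classes of the control and the NK cell-depleted library, 1 point per class and library with exact Poisson 95% intervals. Among the leukocyte classes shown, Irf8 spans from 1941 CPM in control NK-like cells to 9.93 CPM in depleted neutrophil-like cells. Irf9 lies between 57.8 and 113 CPM in the B-like, T-like, dendritic, neutrophil-like and monocyte/macrophage-like classes.

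NK-like cells were a main carrier of Irf8 in the control library. Of 9103 Irf8 UMIs in the control library, NK-like cells held 3014 (33.1%) and monocyte/macrophage-like cells 4435 (48.7%). In the depleted library, monocyte/macrophage-like cells held 3869 of 5667 (68.3%). Irf8 UMIs were found in 89.8% of the control NK-like cells at a median of 2204 UMIs per cell, and in 83.3% of 330 of them thinned to 2000 UMIs each. The share was 5.94% in control T-like cells at a median of 2080 UMIs and 3.33% in control melanoma-like cells at a median of 1678 UMIs. Both were far below the share in NK-like cells. Wide detection was not limited to NK-like cells. Irf8 UMIs were found in 83.6% of control migratory DC-like and 59.3% of control monocyte/macrophage-like cells, which were deeper. Thinned to 2000 UMIs, these shares were 73.2% and 35.0%. All 31 control cells of the Xcr1-led subcluster held Irf8 UMIs. Over all kept cells, Irf8 was at 367 CPM in the control and 244 CPM in the depleted library, a ratio of 1.51 (1.46 to 1.56). Without the NK-like cells the values were 262 and 244 CPM and the ratio was 1.07 (1.03 to 1.11). For no other member did NK-like cells hold a comparable part of the UMIs, as the next shares were Irf1 with 11.0% and Irf3 with 8.50%.

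**Figure D2:**
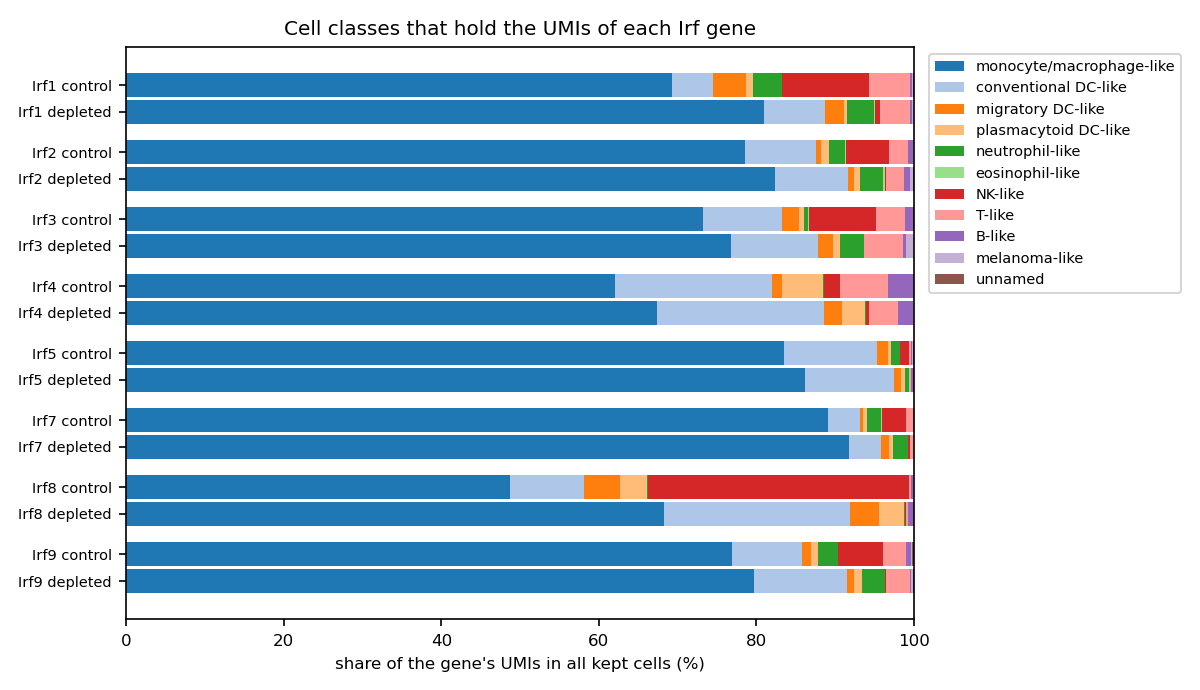
Share of each member's UMIs (percent of all its UMIs in kept cells) held by each class in the control and the NK cell-depleted library. NK-like cells hold 33.1% of the control Irf8 UMIs and 11.0% of the control Irf1 UMIs, and monocyte/macrophage-like cells hold 89.1% of the control Irf7 UMIs.

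The comparison of control with NK cell-depleted tumors asked what the remaining leukocytes carried once NK cells were gone. In monocyte/macrophage-like cells, the largest class, Irf4 and Irf5 were lower in the control, and the other members did not pass the fold used here, at least 25% higher in either library than in the other. Irf4 was at 30.1 CPM in the control (580 UMIs) and 48.9 CPM in the depleted library (918 UMIs), a ratio of 0.615 (0.553 to 0.683). Irf5 was at 139 CPM (2686 UMIs) and 188 CPM (3523 UMIs), a ratio of 0.742 (0.706 to 0.781). This made 2 of 8 members past the fold, against 29.5% of the 10716 genes with at least 50 UMIs in this class, a share close to that background. The median log2 ratio was -0.13 over the members and -0.026 over all genes tested.

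The remaining members were nearly level in the pooled class. Irf8 was at 230 and 206 CPM (1.12, 1.07 to 1.17), Irf7 at 156 and 168 CPM (0.929, 0.884 to 0.977) and Irf1 at 63.3 and 60.9 CPM (1.04, 0.958 to 1.13). Irf2 was at 153 and 170 CPM (0.902), Irf3 at 26.3 and 23.9 CPM (1.10) and Irf9 at 73.0 and 81.0 CPM (0.901). The intervals of Irf1 and Irf3 included 1. NK marker UMIs in this class also moved with the group, with 347 in the control (0 of 11 markers at 0) and 19 in the depleted library (9 of 11 markers at 0). Without the 18 control and 2 depleted cells that held at least 2 NK marker UMIs, the count was also 2 of 8. So few cells were removed that the count could hardly change, and single NK marker UMIs stayed in.

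**Figure D3:**
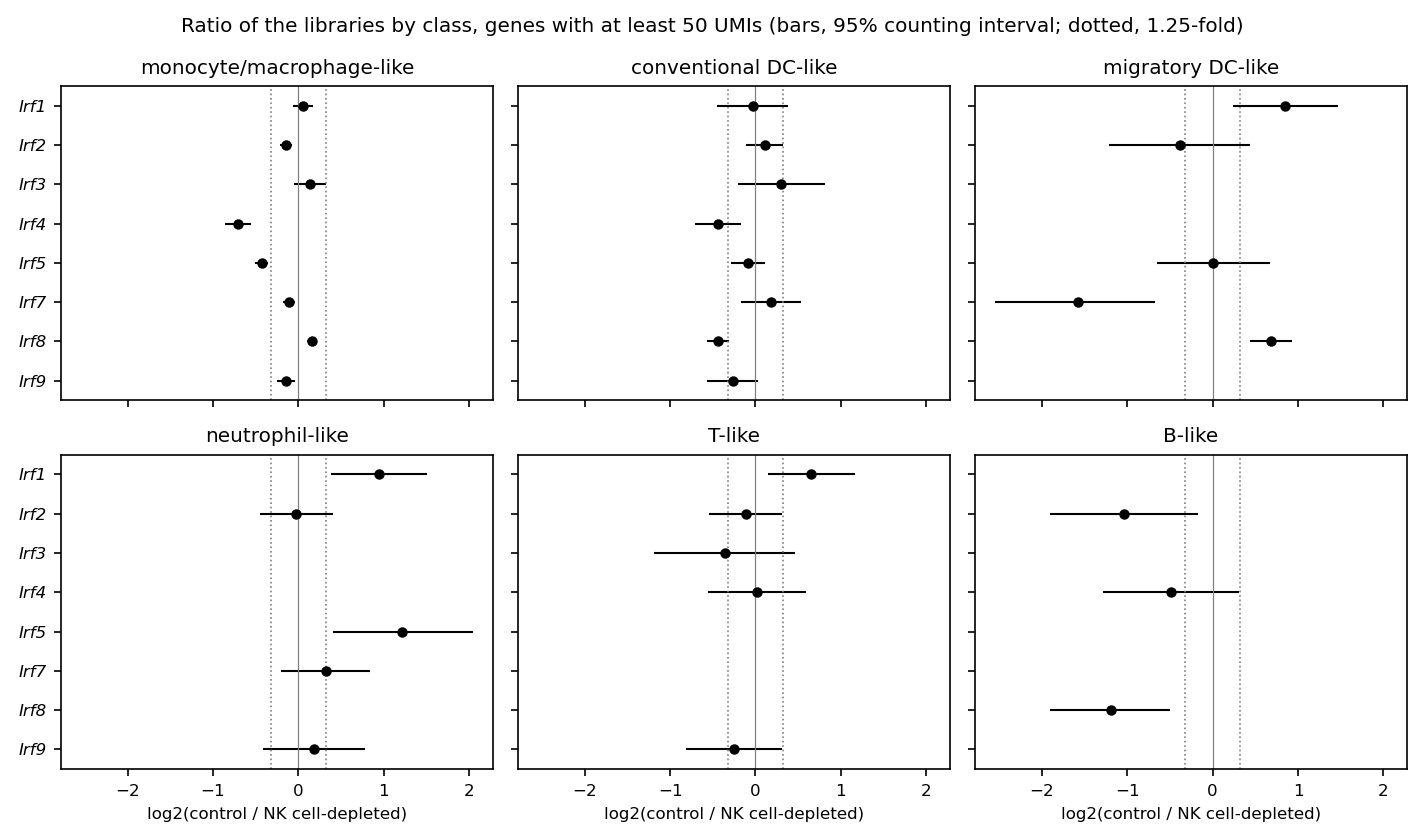
Ratio of control to NK cell-depleted level (log2 of the plain ratio) of each member in 6 classes, with exact 95% counting intervals, for members with at least 50 UMIs in the class. Irf4 and Irf5 lie below 0 in monocyte/macrophage-like cells, while Irf1 lies above 0 in migratory DC-like, neutrophil-like and T-like cells.

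The pooled class hid a second pattern, because its 10 clusters differed in their Irf levels and in their shares of the class. The cluster led by Spon1, Ly6c2 and Ly6a, with the surface marker gene of inflammatory monocytes, held the most Irf7 and Irf1. It made up 11.2% of the class in the control and 26.3% in the depleted library. The cluster led by Ace, Chil3 and Cd177 made up 7.39% and 16.4%. By contrast, the clusters led by Gpnmb and Mmp13 (20.2% and 12.0%), by Spint1 and Htra3 (18.4% and 10.7%) and by Pf4 and Ms4a7 (17.3% and 8.20%) were larger in the control and low in Irf1 and Irf7.

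Across the 10 clusters, Irf4 ranged 24.6-fold between the highest and the lowest mean of both libraries, Irf8 12.1-fold and Irf7 9.03-fold. Irf5 and Irf2 ranged 2.53-fold each. The lowest Irf4 mean, in the Gpnmb Mmp13 cluster, rested on only 15 control and 8 depleted UMIs, so the Irf4 range is uncertain. Irf1 had a highest mean of 121 CPM and Irf3 one of 30.5 CPM, but both were lowest in a cluster with 4 control and 1 depleted UMIs of each, too few for a range. Irf4 peaked in the cluster led by Retnla and Il6, at a mean of 134 CPM, where Irf8 had its lowest mean, 23.5 CPM. This opposition describes that 1 cluster. Over the 20 clusters used for likeness below, the Pearson correlation of Irf4 with Irf8 was 0.445.

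Within clusters, Irf7 was higher in the control in 9 of 10 and beyond counting error in 7 of 10. In the Spon1 Ly6c2 cluster it was at 458 CPM in the control and 334 CPM in the depleted library (1.37, 1.27 to 1.47), and in the Ace Chil3 cluster at 312 and 217 CPM (327 and 529 UMIs). In the Gpnmb Mmp13 cluster it was at 97.0 and 41.4 CPM (2.34, 1.77 to 3.13), in the Spint1 Htra3 cluster at 59.7 and 29.9 CPM (2.00, 1.52 to 2.67) and in the Pf4 Ms4a7 cluster at 102 and 55.3 CPM (1.85, 1.49 to 2.30). The cluster led by Ccl8, Lyve1 and Cd209f, genes of resident macrophages, was at 243 and 159 CPM (1.53, 1.30 to 1.79). The exception was the Retnla Il6 cluster, where Irf7 was at 51.7 and 57.2 CPM (0.903, 0.636 to 1.27).

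Irf1 behaved alike, with higher control levels in 9 of 10 clusters and in 5 of 10 beyond counting error. The values were 150 and 91.1 CPM in the Spon1 Ly6c2 cluster (1.65, 1.44 to 1.89) and 109 and 64.5 CPM in the Ace Chil3 cluster (1.69, 1.31 to 2.16). They were 33.5 and 17.9 CPM in the Spint1 Htra3 cluster (1.87, 1.30 to 2.73) and 111 and 70.0 CPM in the Retnla Il6 cluster (1.58, 1.21 to 2.07). The cluster led by Slc7a2 was the exception, at 16.8 and 28.0 CPM (0.601, 0.333 to 1.07). Among the genes with at least 1000 UMIs in the class, 8.01% of 5068 were higher in the control beyond counting error in at least 5 of the 10 clusters. Irf1 and Irf7 were the 2 of 7 members at this depth that met this rule.

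Irf5 went the other way, with lower control levels beyond counting error in 5 of 10 clusters, a rule met by 10.3% of the same 5068 genes. It was at 145 and 191 CPM in the Spon1 Ly6c2 cluster (0.757, 0.669 to 0.855), at 106 and 147 CPM in the Gpnmb Mmp13 cluster (0.717, 0.599 to 0.858) and at 198 and 268 CPM in the Retnla Il6 cluster (0.738, 0.624 to 0.872). No other member met this rule. Irf4 was lower beyond counting error in 2 of 10 clusters, namely the Retnla Il6 cluster with 102 and 165 CPM (0.620, 0.492 to 0.776) and the Spon1 Ly6c2 cluster with 40.6 and 53.2 CPM (0.763, 0.602 to 0.962).

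Irf8 was higher in the control in 10 of 10 clusters, but only in the Ace Chil3 cluster beyond counting error, with 330 and 240 CPM (1.38, 1.20 to 1.57). Irf3 was higher in 9 of 10 clusters and in 0 of them beyond counting error, at the lowest UMI counts of the family. Irf2 was higher in 6 of 10 and Irf9 in 6 of 10, with 0 and 1 of them beyond counting error.

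**Figure D4:**
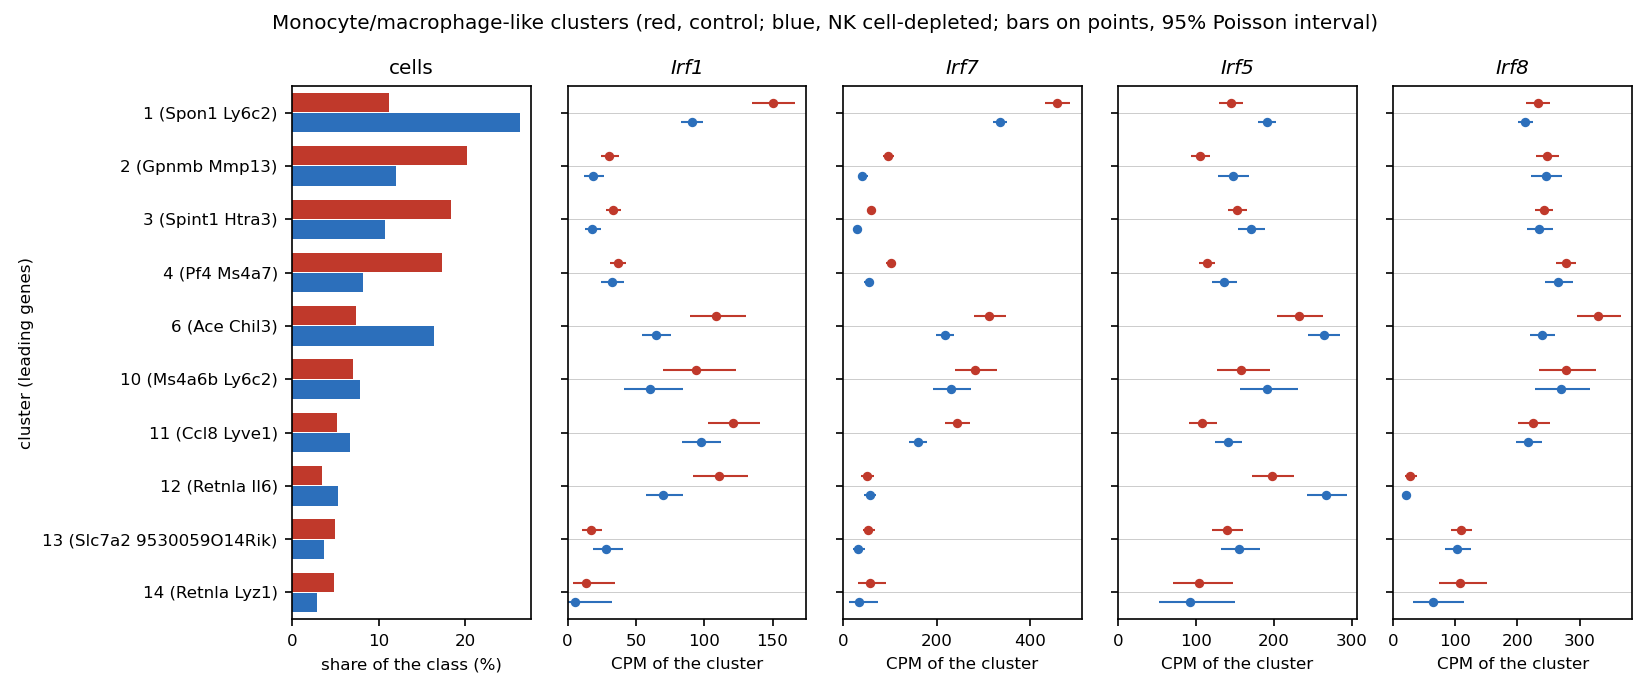
Share of the class held by each of the 10 monocyte/macrophage-like clusters, and levels (CPM) of Irf1, Irf7, Irf5 and Irf8 in them. Levels have 1 point per cluster and library with exact Poisson 95% intervals. Control points of Irf7 lie above the depleted points in 9 of 10 clusters, and those of Irf5 lie below in 9 of 10.

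When every cluster counted with the same weight, Irf7 stood at 172 CPM in the control and 119 CPM in the depleted library, a ratio of 1.44, and Irf1 at 71.5 and 48.5 CPM, a ratio of 1.47. The pooled ratios of these members were 0.929 and 1.04. Irf4 stood at 34.0 and 48.1 CPM (0.707), whereas Irf5, at 146 and 176 CPM (0.829), was no longer past the fold. Irf3 had a ratio of 1.23, Irf8 of 1.11, Irf2 of 1.05 and Irf9 of 1.04. By this weighting 3 of 8 members were past the fold, against 26.7% of all genes tested. The pooled and the equally weighted value answer different questions, namely what the class as sampled contained and what its average cluster contained.

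**Figure D5:**
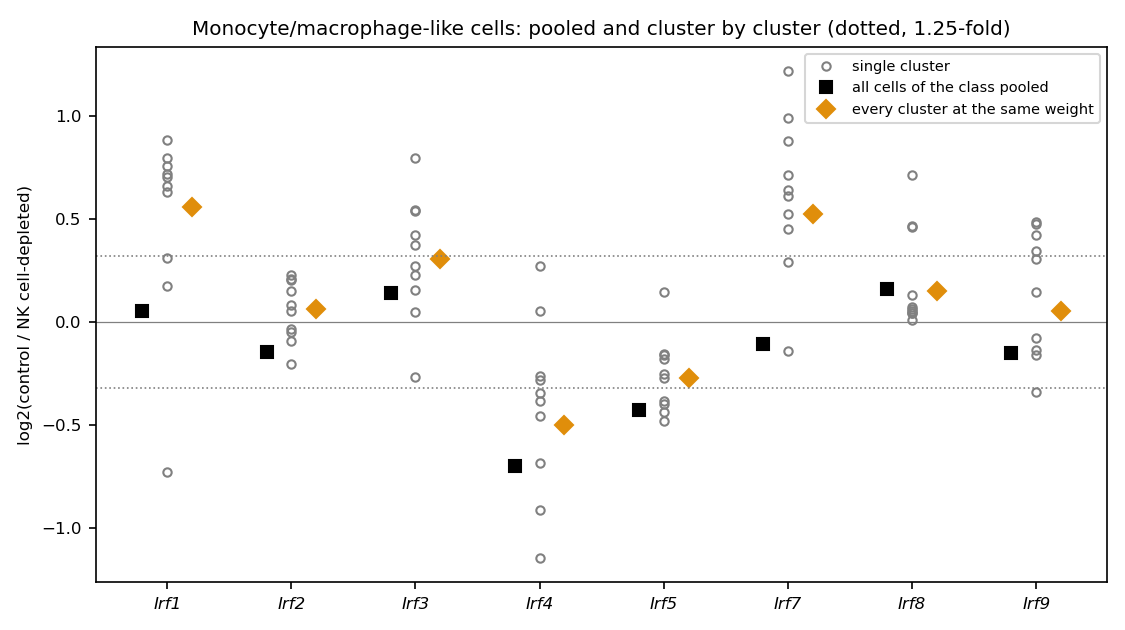
Ratio of control to NK cell-depleted level (log2) of each member in monocyte/macrophage-like cells, pooled over the class, with every cluster at the same weight, and in each of the 10 clusters (1 point each). Irf7 moves from -0.11 pooled to 0.53 at equal weight and Irf1 from 0.055 to 0.56, while Irf4 stays below 0 at both.

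The genes around the family were followed in the same class, from lists of sensors and adaptors, kinases, binding partners, negative regulators and target genes that were written with earlier results of these data known. Of all genes with enough UMIs, 15.7% were past the fold upwards and 13.8% downwards in the control in the pooled class, and 14.0% and 12.7% at equal cluster weight, the background for the counts of each list. Among 13 sensors and adaptors with enough UMIs, 1 was past the fold upwards and 1 downwards in the control in the pooled class, and 4 and 0 at equal cluster weight. Tlr3, the sensor of double-stranded RNA, was at 9.69 and 6.71 CPM (1.44, 1.15 to 1.83), and Myd88, the adaptor that links Toll-like receptors to IRF5 and IRF7, at 79.4 and 119 CPM (0.668, 0.625 to 0.713). Among 9 kinases, 0 were higher and 2 lower in the pooled class and likewise at equal weight. These were Tyk2, the kinase of the type I interferon receptor, at 34.0 and 51.0 CPM (0.666, 0.602 to 0.736), and Chuk at 48.8 and 63.1 CPM (0.773, 0.709 to 0.843).

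Among 13 binding partners, 0 were higher and 1 lower in the pooled class, and 2 and 0 at equal weight. The lower one was Ikzf1, at 112 and 165 CPM (0.680, 0.643 to 0.718). Among 8 negative regulators, 1 was higher and 1 lower, and 4 and 1 at equal weight. Tnfaip3, which encodes the ubiquitin-editing protein A20, was at 192 and 317 CPM (0.604, 0.580 to 0.630).

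Target genes were taken in 3 lists. Of 17 targets of IRF1 and interferon-gamma, 8 were higher and 3 lower in the pooled class, with a median log2 ratio of 0.23, and 13 and 0 at equal weight, with a median of 0.56. Gbp5, a guanylate-binding protein, was at 8.65 and 4.68 CPM (1.85, 1.42 to 2.42). Psmb10, an immunoproteasome subunit, was at 120 and 156 CPM (0.767, 0.727 to 0.811), and Ifi47 at 82.1 and 106 CPM (0.776, 0.726 to 0.830). Ifi47 was lower in the pooled class, yet it was higher in the control in 10 of 10 clusters. B2m, the light chain of MHC class I, was lower in both views, at 2962 and 3726 CPM, and lower beyond counting error in 8 of 10 clusters.

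Of 15 targets of IRF3, IRF7 and ISGF3, 6 were higher and 2 lower in the pooled class, with a median log2 ratio of 0.10, and 12 and 0 at equal weight, with a median of 0.60. Isg15, a ubiquitin-like protein, was at 183 and 133 CPM (1.38, 1.31 to 1.45), and Ifit3, an RNA-binding antiviral protein, at 41.4 and 27.3 CPM (1.52, 1.36 to 1.70). Oasl2 was at 132 and 180 CPM (0.733, 0.696 to 0.771) pooled, with a log2 ratio of 0.18 at equal weight. The median of all genes was -0.026 pooled and -0.023 at equal weight.

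Of 11 targets of IRF4 and IRF5, 3 were higher and 3 lower in the pooled class, with a median log2 ratio of -0.16, and 2 and 3 at equal weight, with a median of -0.27. Ccl22, a chemokine for regulatory T cells, was at 11.3 and 3.09 CPM (3.66, 2.73 to 4.98) and Ccl17 at 28.6 and 16.6 CPM (552 and 311 UMIs). Il10, an anti-inflammatory cytokine, was at 24.8 and 47.2 CPM (0.526, 0.470 to 0.589), and Il6 at 24.1 and 36.5 CPM (0.661, 0.587 to 0.745). Chil3, which also leads one of the clusters, had a ratio of 0.290 and Arg1, an enzyme of arginine breakdown, one of 1.95. Of the interferon genes themselves, 6 listed, no gene reached 50 UMIs. They held 4 UMIs in the control and 9 UMIs in the depleted library in total. Ifng had 4 and 1 of these and Ifnb1 had 0 and 8. With so few UMIs, their levels were not measurable at this depth.

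In conventional DC-like cells pooled over the class, Irf8 and Irf4 were lower in the control. Irf8 was at 425 CPM (860 UMIs) and 576 CPM (1337 UMIs), a ratio of 0.738 (0.676 to 0.804), and Irf4 at 91.9 and 125 CPM, a ratio of 0.738 (0.611 to 0.891). They were 2 of 8 members past the fold, against 36.2% of 7223 genes. Irf8 was no longer past the fold under a stricter cell filter (log2 ratio -0.21) or at clustering resolution 2 (-0.14), and Irf4 was not with classes called cell by cell (-0.19). The class was a mix of subclusters with unlike Irf8 levels, whose part in the ratio was not tested. A subcluster led by Xcr1, called type 1 DC-like, held 31 control and 53 depleted cells, with 628 of 860 (73.0%) and 1230 of 1337 (92.0%) of the class's Irf8 UMIs. Its own level was 2542 and 3059 CPM (0.831, 0.754 to 0.916). In the conventional DC-like cells outside it, a group set after the values were seen, Irf8 was at 131 and 55.8 CPM (2.34, 1.85 to 2.97), the opposite direction. Irf4 kept its direction there, at 105 and 145 CPM (0.720, 0.595 to 0.870). In that remainder, 1 subcluster was led by F13a1, with the monocyte gene Ly6c2 among its top genes, 1 was led by Mmp12, and 1 held Ccr7 and Ccl22, genes of migratory DCs, among its top genes.

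In migratory DC-like cells, Irf1 and Irf8 were higher in the control, from few cells. Irf1 was at 215 CPM (74 UMIs in 29 of 61 cells) and 120 CPM (34 UMIs in 12 of 51 cells), a ratio of 1.80 (1.18 to 2.78). Irf8 was at 1197 CPM (411 UMIs in 51 of 61 cells) and 745 CPM (211 UMIs in 31 of 51 cells), a ratio of 1.61 (1.36 to 1.91). Irf7 was lower, at 43.7 and 131 CPM (0.334, 0.170 to 0.624), but its UMIs came from 6 of 61 and 8 of 51 cells. Irf2, at 75.7 and 98.9 CPM, was past the fold within counting error (0.766, 0.431 to 1.36), and Irf5 was level at 131 and 131 CPM. Of the 5 members with at least 50 UMIs, 4 were past the fold, against 46.9% of 1837 genes. Under a stricter cell filter, Irf1 (log2 ratio 1.06) and Irf8 (0.76) stayed past the fold, while Irf7 (-2.07) and Irf2 (-0.073) had 46 UMIs each, under the minimum of 50. Without the highest doublet scores, Irf1 (0.63), Irf8 (0.55) and Irf5 (-0.30) could be counted, and Irf7 (-1.45) and Irf2 (-0.36) had 35 and 44 UMIs.

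Plasmacytoid DC-like cells were a subcluster of the conventional DC-like clusters, and they were not uniform. Siglech, a receptor that marks plasmacytoid DCs, had a UMI in 20 of 32 control and 14 of 27 depleted cells, and Cd209a, a gene of conventional DCs and monocyte-derived cells, in 23 and 17 cells. Irf8 was at 1755 CPM (314 UMIs in 20 cells) and 1140 CPM (181 UMIs in 12 cells), a ratio of 1.54 (1.28 to 1.86). Of these UMIs, 287 of 314 and 154 of 181 lay in the cells with Siglech. Irf4 was level, at 268 and 258 CPM (1.04, 0.671 to 1.62). The part of this mix in the ratios was not tested.

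In neutrophil-like cells, Irf1 and Irf5 were higher in the control. Irf1 was at 152 CPM (65 UMIs) and 79.4 CPM (48 UMIs), a ratio of 1.92 (1.30 to 2.85), and Irf5 at 84.3 CPM (36 UMIs) and 36.4 CPM (22 UMIs), a ratio of 2.32 (1.33 to 4.14). With classes called cell by cell, the log2 ratio of Irf5 fell from 1.20 to 0.14. Irf7, at 141 and 113 CPM, Irf2 and Irf9 had intervals that included 1. Thus 2 of 5 members were past the fold, against 38.7% of 2764 genes. NK marker UMIs numbered 25 in the control and 2 in the depleted neutrophil-like cells.

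In T-like cells, Irf1 was at 145 CPM (92 UMIs) and 92.7 CPM (53 UMIs), a ratio of 1.57 (1.11 to 2.24). Irf4 was level at 88.5 and 87.5 CPM (interval of the ratio 0.678 to 1.51), and Irf3, at 39.5 and 50.7 CPM, was past the fold within counting error (0.778, 0.437 to 1.38). With these, 2 of 5 members were past the fold, against 40.8% of 3881 genes. The make-up of the class differed, since its CD8 T-like subcluster held 49 control and 110 depleted cells, and in that subcluster Irf1 was at 70.9 and 91.5 CPM (0.775, 0.282 to 1.85). NK marker UMIs were at 275 CPM in the control and 75.2 CPM in the depleted T-like cells. Without the 36 and 8 T-like cells that held at least 2 of them, an alternative chosen after seeing the data, Irf1 kept a log2 ratio of 0.63 and 1 of 5 members was past the fold.

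B-like cells gave thin counts. Irf8, which takes part in germinal center B cell development, was at 278 CPM (31 UMIs) and 635 CPM (44 UMIs), a ratio of 0.438 (0.267 to 0.709). Irf2 was at 197 CPM (22 UMIs) and 404 CPM (28 UMIs), a ratio of 0.488 (0.266 to 0.885), and Irf4 at 278 and 390 CPM, a ratio of 0.714 (0.412 to 1.24). All 3 of 3 members with enough UMIs were past the fold and lower in the control, against 53.6% of 472 genes. Under a stricter cell filter none of them reached 50 UMIs, with 12 UMIs of Irf8 (log2 ratio -0.98), 8 UMIs of Irf2 (-0.73) and 5 UMIs of Irf4 (-2.57).

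Likeness was described over 20 clusters with at least 50 cells, as the Pearson correlation of log2(CPM + 5), among 9511 genes. The points share libraries and depth, so the values are a description. Among the 3 genes most like Irf1 were Herc6 (0.851) and Gbp5 (0.832). Those most like Irf7 were Xaf1 (0.903), Trafd1 (0.901) and Zbp1 (0.893), all known as interferon-induced genes. Irf5 was most like Nsf (0.921), Csf2ra (0.903), the receptor chain for the growth factor GM-CSF, and Pld4 (0.897).

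Irf8 was most like Nudt1 (0.868), Gnptab (0.854) and Slamf7 (0.830), a receptor of NK and other immune cells. Among the genes most like Irf4 were Lpcat1 (0.890) and Nckipsd (0.863), and Irf2 was most like Sla (0.904), Camk1d (0.895) and Arhgdib (0.885). For Irf3 the closest gene was Acin1 (0.928) and for Irf9 it was Fzr1 (0.941). Between members, the highest values were Irf1 with Irf3 (0.703) and Irf3 with Irf4 (0.684), Irf1 with Irf7 gave 0.571, and Irf1 with Irf5 gave the lowest, 0.0163.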

How the data were processed

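Cells were sorted CD45+ leukocytes profiled with the 10x Genomics 3′ v3 kit. The deposited matrices hold UMI counts per gene and cell, which the authors made with bcl2fastq and Cell Ranger on mm10 (the matrix header names software version 3.0.2, and the study's methods another release). The authors' log2 table of normalized values was not used here. Of 11651 cells, 9798 were kept, by limits of 500 and 15000 UMIs and of 200 and 4000 genes, with no more than 10% of UMIs from mitochondrial genes. This removed 212 control and 353 NK cell-depleted cells above the upper limits. Scrublet called 41 and 31 doublets, which were kept. Cells were clustered with scanpy 1.11.5 and leidenalg 0.10.2 (2000 variable genes, 15 components, 20 neighbors, resolution 1), leaving out Irf and pathway genes. Clusters were named from marker lists, some of whose genes came from the study's own cluster table. How many markers a name needed was decided with the clusters in view. The members and all lists were chosen with earlier results of these data known.

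UMI counts were summed per class and library and divided by the class total (CPM). Intervals are exact Poisson for levels and exact conditional binomial for ratios (scipy 1.17.1), and a 0 is given as at most 3 counts. They treat UMIs as independent and cover counting error only. A gene was counted as past the fold when at least 25% higher in either library, with at least 50 UMIs over both libraries. With 1 library per group no p-value was computed. Log2 ratios have 0.5 UMI added. Pathway genes were named as at most 3 per list and direction, by the largest ratio past the fold, and like genes as the 3 closest; some genes that these rules name are not reported here. The summing and interval steps were tested on simulated data. Alternatives were a stricter cell filter (at least 1000 UMIs, at most 5% mitochondrial), resolution 2, classes called cell by cell, removal of the top 5% of doublet scores and centring on the median gene, and, for monocyte/macrophage-like cells, equal cluster weights, no upper cell limits, thinning to 2000 UMIs, removal of the 5 cells with most UMIs of a gene, a minimum of 1 UMI, a fold of 1.5 and removal of cells with NK marker UMIs. That removal was extended to the other classes after seeing the data.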

Additional observations from a re-analysis of the deposited data

Results flagged for a closer look

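Irf5 moved in opposite directions in 2 classes. Its log2 ratio of control to NK cell-depleted was 1.20 in neutrophil-like cells (36 and 22 UMIs) and -0.43 in monocyte/macrophage-like cells (2686 and 3523 UMIs). Both intervals exclude 0, and the difference between the classes was not tested.

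Irf8 likewise had a log2 ratio of 0.68 in migratory DC-like cells (411 and 211 UMIs) and -1.18 in B-like cells (31 and 44 UMIs). Both intervals exclude 0, and this difference was not tested either.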

How the results depend on the processing

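No paired analysis was possible because each group had 1 library, and for the same reason no replicate could be left out. Counts of members under the alternatives are given here without the share of all genes under the same setting, so they describe the members only. In monocyte/macrophage-like cells, 1 of 8 members (Irf4) was past a fold of 1.5, against 2 of 8 at the main fold. Equal cluster weights moved the log2 ratios of Irf1 to 0.56, Irf7 to 0.53, Irf2 to 0.064, Irf9 to 0.055, Irf4 to -0.50 and Irf5 to -0.27, since each of the 10 clusters then counts alike. Irf3 in T-like cells reversed, from -0.36 to 0.048, under the stricter cell filter, and the cause was not tested. The stricter filter also moved Irf8 in conventional DC-like cells to -0.21, Irf4 in T-like cells to -0.74 and Irf4 in B-like cells to -2.57. Resolution 2 moved Irf8 in conventional DC-like cells to -0.14, which left 1 of 8 members there past the fold. Classes called cell by cell moved Irf1 in conventional DC-like cells to 0.72 and Irf5 in neutrophil-like cells to 0.14. They left Irf4 in conventional DC-like cells at -0.19, within the fold. In conventional DC-like cells 4 of 8 members were then past the fold. At the main setting 2 of 8 members and 36.2% of all genes were past it there. The number of T-like members past the fold was 1 under the stricter filter, under cell by cell classes and without cells with NK marker UMIs. The number in migratory DC-like cells was 2, not 4, under the stricter filter and without the highest doublet scores, and in B-like cells 0, not 3, under the stricter filter. These counts also need 50 UMIs, which Irf7 (35 to 46 UMIs, log2 ratio -2.07 to -1.45) and Irf2 (44 to 46 UMIs) missed in migratory DC-like cells and the 3 members (5 to 12 UMIs) missed in B-like cells. Depth limits such classes, where a member rests on few UMIs and its interval is wide.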
